A study of Homo sapiens with 28 samples.

Results

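The response of LNCaP cells to the synthetic androgen R1881 was measured while the kinases CDK8 and CDK19 were inhibited with Senexin B. The comparison was chosen by treatment and time from the labels, and it holds 6 of the 28 RNA-Seq libraries of the series. In 3 libraries the cells had received Senexin B alone at 1 µM for 24 h, and in the other 3 they had received Senexin B at 1 µM together with R1881 at 0.1 nM for 24 h. LNCaP is a human prostate cancer line that grows in response to androgen, and the labels give its genotype as WT. Before treatment all cells had been androgen deprived for 72 h in charcoal-stripped serum, from which steroids are removed. Both groups therefore carry the inhibitor and the androgen deprivation, and R1881 is the only difference that the labels give between them. The labels do not say whether either group also received the DMSO vehicle. The doses are those of the labels, and the text of the study gives another dose for Senexin B. A further 6 libraries of the same 24 h experiment, 3 with 0.1% DMSO as vehicle and 3 with R1881 at 0.1 nM and no inhibitor, served to ask whether the androgen response differed with the inhibitor. The remaining 16 libraries belong to a 72 h experiment with R1881 at 1 nM and SNX631, another CDK8/19 inhibitor, at 500 nM. All groups come from 1 cell line grown in plates, which limits them as a model of a tumor.

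Androgens act in the nucleus through DNA sequences called androgen response elements, where coregulators are recruited to raise or lower transcription. In prostate luminal cells they are known for driving secretory proteins such as prostate-specific antigen, lipid and polyamine synthesis and, in cancer lines, the cell cycle. CDK8 and CDK19 are alternative kinase subunits of the Mediator kinase module, which also holds cyclin C, MED12 and MED13 or their paralogs and which binds the core Mediator complex that links transcription factors to RNA polymerase II. Senexin B and SNX631 inhibit the kinase activity of CDK8 and CDK19 and do not remove the proteins.

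The 6 libraries held from 10908361 to 13346723 counts each, and the 12 libraries of the 24 h experiment from 10219140 to 33809419, of which the highest total was that of vehicle replicate 3. The 10 most abundant genes took from 4.63 to 5.45% of the counts in the 6 libraries. The luminal markers KRT8, KRT18, EPCAM, CDH1, HOXB13, FOXA1 and FOLH1 were present in all 6. The basal markers KRT5 and TP63, the endothelial markers PECAM1 and CDH5 and the T cell marker CD3E were at 0 in all 6, and the 3 basal markers summed to at most 0.162. The 4 fibroblast markers summed to 21.48 to 23.26 CPM (counts scaled to a common library total) with Senexin B and 9.076 to 10.61 with R1881 added, nearly all of it from COL1A1 and COL3A1, while DCN did not exceed 0.0749. Of the other leukocyte and endothelial markers, CD68 lay at 0.779 to 1.3 CPM, VWF at 0.335 to 2.48 CPM, and PTPRC did not exceed 0.077. No library of the 6 stood apart, and replicates differed from each other beyond sampling noise in each group. The series calls the replicates biological, and p-values measure the spread between these libraries.

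R1881 changed 3009 of the 15948 genes tested in Senexin B treated cells (18.9%), of which 1590 rose (9.97%) and 1419 fell (8.9%). A gene was called changed (a differentially expressed gene, DEG) at an edgeR FDR under 0.01 together with an FC over 1.5, the cutoffs of the study. A further 2602 genes (16.3%) passed the FDR limit above 0 and 1969 (12.3%) below 0 with an FC of up to 1.5. Large changes were more often rises. Among the genes that rose, 685 had a log2 FC (the log2 of the fold change) of up to 1, 549 lay between 1 and 2 on the log2 scale, 297 between 2 and 4 and 59 above 4. Among those that fell, 737 lay within 1 log2 unit, 531 between 1 and 2, 140 between 2 and 4 and 11 beyond 4. Called genes had a median log2 FC of 1.03 in absolute size, and the signed median over all tested genes was -0.011. Over all tested genes the 3 R1881 libraries lay above the 3 others for 5186 (32.5%) and below them for 4745 (29.8%), so a lack of overlap alone is common here. With libraries scaled by their totals alone the counts were 1401 higher and 1756 lower. In bulk RNA, fewer cells of a type and less RNA per cell cannot be told apart.

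**Figure D1:**
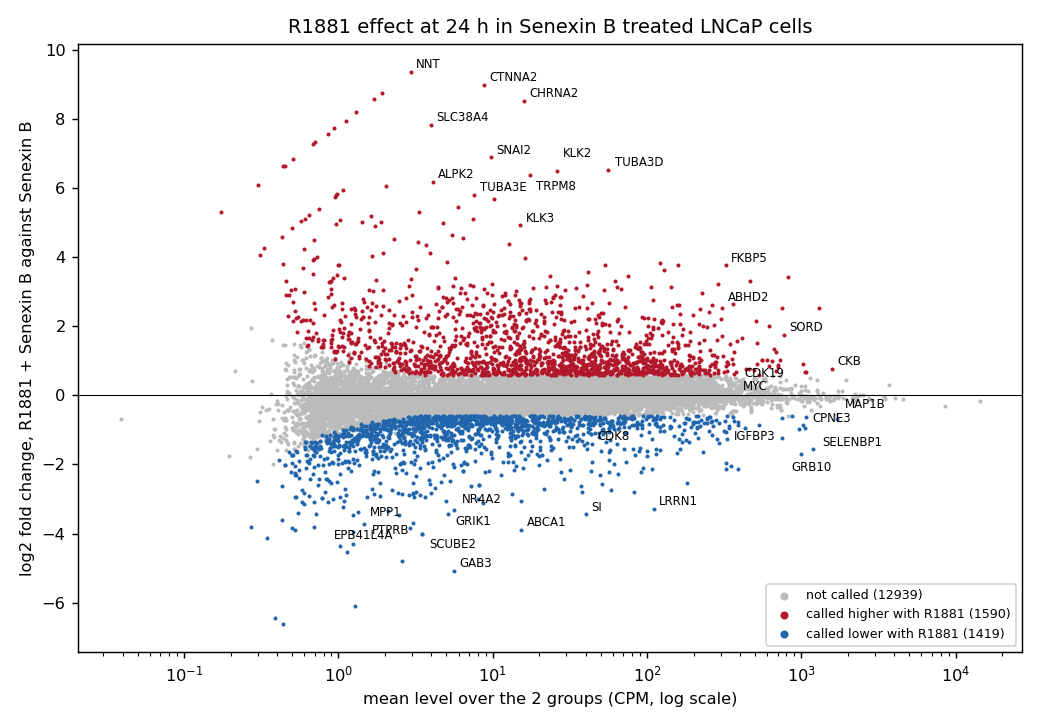
Log2 fold change of R1881 plus Senexin B against Senexin B alone at 24 h (vertical axis) by mean level over both groups in CPM on a log scale (horizontal axis), one point per gene tested. The 1590 genes called higher are red, the 1419 called lower blue and the other 12939 grey, and labels mark named genes. At the far left, where a group held few or no counts, the fitted value depends on the small count that edgeR adds and is no bound.

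The kallikreins and other luminal secretory and surface products had the highest median log2 FC of the 20 lists, 2.98, with 12 of 16 tested members higher and 2 lower. Over all genes tested 9.97% were higher and 8.9% lower. Below, levels are in CPM after scaling by the TMM method of edgeR, first in the 3 Senexin B libraries and then in the 3 libraries with R1881 added, each in the order of replicates 1 to 3. KLK3 encodes prostate-specific antigen (ENSG00000142515.16, chromosome 19, 50854915 to 50860764, plus strand of GRCh38). It stood at 0.959, 0.912 and 0.991 CPM without R1881 and at 29.6, 29.2 and 28.4 CPM with it, a log2 FC of 4.91 ± 0.22 (SE, FDR 6.49e-25 in edgeR). KLK2, a neighboring kallikrein protease (ENSG00000167751.13, chromosome 19, 50861568 to 50880567, plus strand), stood at 0.664, 0.415 and 0.61 CPM and then at 57.9, 49.1 and 48.4 CPM, a log2 FC of 6.49 ± 0.34 (SE, FDR 1.42e-26 in edgeR). The libraries with R1881 lay far above the others for both genes, which are close paralogs whose reads may have been shared out between them.

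The promoters of both genes and of the amino acid transporter gene SLC38A4 are shown. KLK3 and KLK2 are textbook androgen target genes that rose together. SLC38A4 is a strongly raised gene outside that family, and its window held the motif described below. Only the first window listed for each gene is shown, and those of KLK2 and SLC38A4 lie inside the gene bounds given in the text. The sequences are the 250 bases before the RefSeq transcript start on GRCh38.p14, read 5′ to 3′ on the strand of the gene, at chr19:50854665-50854914 (plus strand) for KLK3, chr19:50873189-50873438 (plus strand) for KLK2 and chr12:46825998-46826247 (minus strand) for SLC38A4. Capitals mark, for KLK3, the 15 bases that begin with the 6-base motif AGAACA of androgen response elements, for KLK2 the stretch most like those 15 bases, and for SLC38A4 the motif as its reverse complement TGTTCT.
KLK3: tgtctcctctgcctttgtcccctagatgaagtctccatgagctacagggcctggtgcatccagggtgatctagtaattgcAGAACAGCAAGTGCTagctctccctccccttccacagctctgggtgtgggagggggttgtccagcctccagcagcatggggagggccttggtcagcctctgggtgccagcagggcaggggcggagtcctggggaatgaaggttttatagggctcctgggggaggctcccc
KLK2: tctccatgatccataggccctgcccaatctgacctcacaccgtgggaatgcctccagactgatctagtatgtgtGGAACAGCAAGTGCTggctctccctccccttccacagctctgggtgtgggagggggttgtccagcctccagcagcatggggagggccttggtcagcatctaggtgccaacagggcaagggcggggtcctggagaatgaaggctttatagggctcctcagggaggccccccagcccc
SLC38A4: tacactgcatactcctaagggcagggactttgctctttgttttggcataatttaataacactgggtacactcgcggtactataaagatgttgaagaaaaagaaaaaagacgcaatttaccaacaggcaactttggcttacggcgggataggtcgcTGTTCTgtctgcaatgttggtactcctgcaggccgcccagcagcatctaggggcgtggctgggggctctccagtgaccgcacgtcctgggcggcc
The capitals begin 170 bases before the start in KLK3, 176 in KLK2 and 95 in SLC38A4. KLK2 matched the KLK3 stretch at 14 of 15 bases, and the substitution was A1G, counted from 1 at the 5′ end of the stretch with the KLK3 base first, so the KLK2 window held no exact AGAACA. Over all 35116 RefSeq windows of 300 bases, from 250 before to 50 after a start, AGAACA was found on either strand in 14.8%, its palindromic pair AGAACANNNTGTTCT in 0.00285%, and the looser pair AGNACANNNTGTNCT in 0.0655%. Of the 10 genes with the highest log2 FCs described below, 8 had windows, and 4 of their 17 windows held AGAACA (those of CTNNA2, NNT, SLC38A4 and TRPM8). Of the 10 lowest, 7 had windows, and 1 of 8 windows held it (SI). These are matches of letters and not binding sites, and androgen response elements often lie outside such windows.

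Further members of the luminal list moved with KLK3. TMPRSS2, a serine protease of the luminal surface, rose from 16.2, 15.2 and 15.7 CPM to 236, 213 and 226 CPM, a log2 FC of 3.84 ± 0.065 (SE, FDR 2.28e-32 in edgeR). SLC45A3, which encodes the prostate membrane protein prostein, rose from 20.8, 23.4 and 20.9 CPM to 298, 291 and 298 CPM, a log2 FC of 3.77 ± 0.059 (SE, FDR 8.04e-33 in edgeR). KLK4, another kallikrein, rose by 3.47 on the log2 scale and AZGP1, which encodes zinc-alpha-2-glycoprotein, by 3.32 (edgeR FDR 5.01e-30 and 4.14e-27). STEAP4, a metalloreductase, had no counts in any Senexin B library and stood at 4.4, 2.96 and 2.81 CPM with R1881, at least 43.8-fold higher against a floor of 3 counts for the group. The 2 members that fell are also luminal products. ACP3, which encodes prostatic acid phosphatase, fell from 25.7, 24.8 and 25.8 CPM to 12.7, 10.3 and 11.9 CPM, a log2 FC of -1.12 ± 0.084 (SE, FDR 1.36e-13 in edgeR). FOLH1, which encodes prostate-specific membrane antigen, fell from 1325, 1286 and 1347 CPM to 693, 756 and 738 CPM, a log2 FC of -0.86 ± 0.032 (SE, FDR 5.89e-21 in edgeR). The groups did not overlap for either gene. STEAP1 and STEAP2, at 0.19 and -0.22 on the log2 scale, passed the FDR limit in opposite directions but not the FC limit.

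**Figure D2:**
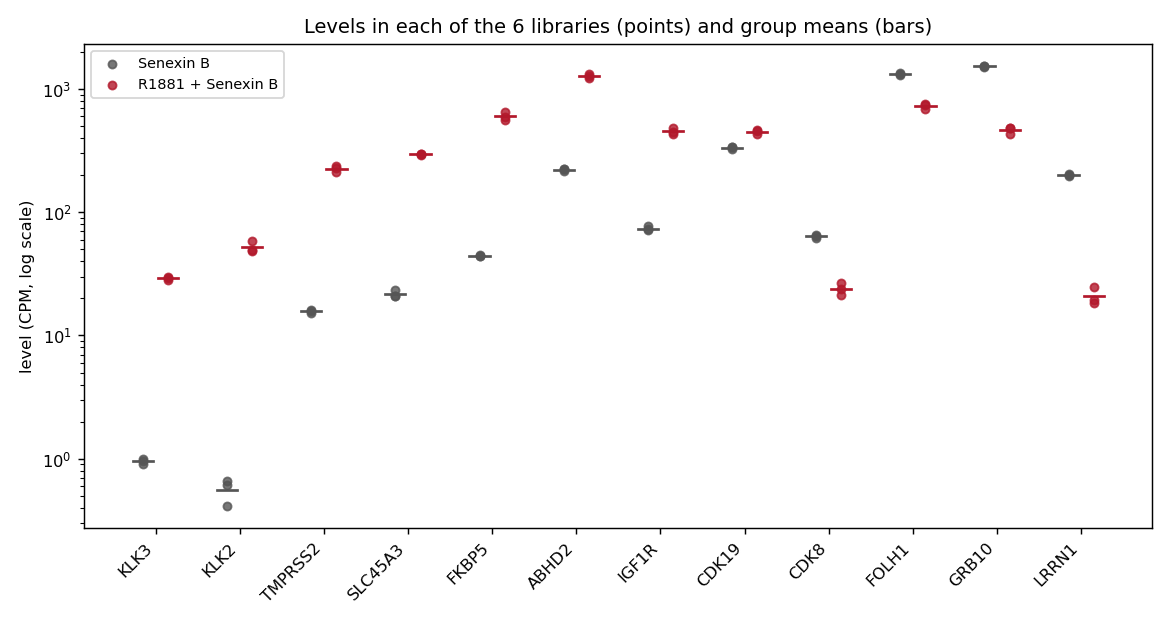
Level in CPM on a log scale (vertical axis) of 12 genes in each of the 6 libraries, grey for Senexin B alone and red for R1881 plus Senexin B, with points for libraries and short bars for group means. KLK3, KLK2, TMPRSS2, SLC45A3, FKBP5, ABHD2, IGF1R and CDK19 were higher and CDK8, FOLH1, GRB10 and LRRN1 lower in all 3 libraries with R1881, although CDK19 stayed within the FC limit.

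Known androgen target genes outside the kallikreins rose in most cases. Of 32 tested members 27 were higher and 0 lower, beside 9.97 and 8.9% of all genes tested. Their median log2 FC was 1.81, beside -0.011 over all tested genes. FKBP5, a co-chaperone of steroid receptors (ENSG00000096060.15, chromosome 6, 35573585 to 35728583, minus strand), rose from 43.9, 44.8 and 44.4 CPM to 646, 561 and 594 CPM, a log2 FC of 3.76 ± 0.053 (SE, FDR 5.42e-33 in edgeR). EAF2, a partner of the elongation factor ELL, rose from 2.14, 1.16 and 2.44 CPM to 32.7, 30.8 and 28.4 CPM, a log2 FC of 3.98 ± 0.19 (SE, FDR 2.48e-22 in edgeR). The spread between replicates was small against these differences. The prostaglandin-degrading enzyme HPGD rose by 3.36 on the log2 scale, the phosphoinositide phosphatase INPP4B by 3.11 and the zinc finger factor ZBTB16 by 2.27 (edgeR FDR 3.13e-12, 1.87e-16 and 2.76e-28). The 5 members that were not called, SGK1, TSC22D3, ADAMTS1, CAMKK2 and TMEM50A, had log2 FCs of -0.39, 0.069, 0.18, 0.34 and 0.42.

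Of 20 tested transcription factors and coregulators of the androgen response 1 rose and 1 fell, beside 9.97 and 8.9% of all genes tested, which is not a result about the list. The member that rose was GRHL2, a factor of epithelial identity, from 153, 148 and 152 CPM to 262, 259.9 and 251 CPM, a log2 FC of 0.77 ± 0.034 (SE, FDR 4.28e-19 in edgeR). The coactivator NCOA3 fell from 44.9, 40.9 and 39.5 CPM to 28.3, 24.1 and 24.2 CPM, a log2 FC of -0.71 ± 0.067 (SE, FDR 5.66e-11 in edgeR). It was not called in a test against an FC of 1.5 itself, for which the limit here and below was an FDR under 0.05. A further 10 members passed the FDR limit below 0 and 4 above 0 without reaching an FC of 1.5, beside 12.3 and 16.3% of all genes tested, among them the pioneer factors FOXA1 at -0.49 and HOXB13 at -0.45 (edgeR FDR 3.46e-15 and 3.01e-14).

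Of 7 tested genes of the targeted kinase module 1 rose and 1 fell, 14.29% each, beside 9.97 and 8.9% of all genes tested. Counts this small are not a result about the module, and the values of single genes follow. CDK8 (ENSG00000132964.13, chromosome 13, 26254104 to 26405238, plus strand) fell from 63.8, 61.7 and 65 CPM to 21.3, 26.8 and 23.9 CPM, a log2 FC of -1.41 ± 0.068 (SE, FDR 1.48e-18 in edgeR). CDK19 (ENSG00000155111.15, chromosome 6, 110609978 to 110815958, minus strand) was 337, 328 and 337 CPM and then 432, 459.7 and 451 CPM, a log2 FC of 0.42 ± 0.032 (SE, FDR 3.99e-13 in edgeR), past the FDR limit and under the FC limit. MED12 and MED13 were at -0.32 and -0.38 (edgeR FDR 5.61e-07 and 9.38e-09), also under the FC limit, and cyclin C (CCNC) was at 0.12 (edgeR FDR 0.0518). MED12L, a paralog of MED12, rose from 3.76, 3.73 and 3.43 CPM to 19.8, 15.7 and 18.1 CPM, a log2 FC of 2.30 ± 0.16 (SE, FDR 1.72e-15 in edgeR). Other genes lie on the opposite strand within MED12L, and the sources used here do not state whether reads were counted by strand. None of the 26 core Mediator subunits was called, beside 9.97% called higher and 8.9% called lower of all genes tested. Their log2 FCs ran from -0.23 for MED29 to 0.49 for MED30. Of the 26, 2 above 0 and 3 below 0 passed the FDR limit alone, beside 16.3 and 12.3% of all genes tested.

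The highest relative rises belonged to genes that were nearly silent in Senexin B alone. NNT, the mitochondrial nicotinamide nucleotide transhydrogenase (ENSG00000112992.18, chromosome 5, 43602692 to 43707405, plus strand), had no counts in the 3 Senexin B libraries and 73, 60 and 74 counts with R1881 added, at least 76.2-fold higher against a floor of 3 counts for the group. CTNNA2, an alpha-catenin of cell adhesion (ENSG00000066032.19, chromosome 2, 79185231 to 80648861, plus strand), had 0, 0 and 1 counts and then 20.1, 17.1 and 15.6 CPM, a ratio of 680 with a 95% interval of 122 to 26903 from counting error. CHRNA2, a nicotinic acetylcholine receptor subunit, held 3 counts in all without R1881 and stood at 34.1, 32.4 and 29 CPM with it, a ratio of 410 with an interval of 140 to 1991. SLC38A4 (ENSG00000139209.16, chromosome 12, 46764761 to 46832408, minus strand) held 1 count in all without R1881 and stood at 8.22, 8.6 and 6.95 CPM with it, a ratio of 305 with an interval of 54.2 to 12078. These intervals are wide because so few counts were seen without R1881, and reads are not independent molecules, so they cover counting error only. In all, 14 genes called higher and 2 called lower had no counts in their lower group, and a further 28 and 11 had 1 to 3.

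The other genes at the top held more than 3 counts in all without R1881, but some of them only a few. SNAI2 had 3, 1 and 2 counts in the Senexin B libraries, ALPK2 2, 1 and 1, and TUBA3E 3, 5 and 2. The log2 FCs of these genes rest on few counts. SNAI2, the transcription factor Slug, rose from 0.221, 0.0829 and 0.152 CPM to 19.9, 16.8 and 21 CPM, a log2 FC of 6.88 ± 0.57 (SE, FDR 1.47e-22 in edgeR). TRPM8, a cold-sensing cation channel, rose from 0.369, 0.415 and 0.457 CPM to 33.4, 33.5 and 37.1 CPM, a log2 FC of 6.36 ± 0.33 (SE, FDR 2.34e-26 in edgeR). TUBA3D and TUBA3E, near-identical alpha-tubulin genes whose counts are uncertain for that reason, rose by 6.53 and 5.81 on the log2 scale, and the kinase gene ALPK2 by 6.17 (edgeR FDR 1.45e-31, 8.92e-21 and 2.12e-17). Each of these genes was below 2 CPM in every Senexin B library.

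The deepest falls were of more modest size. GAB3, a docking protein of receptor signaling (ENSG00000160219.12, chromosome X, 154675249 to 154751583, minus strand), fell from 9.37, 11.9 and 11.4 CPM to 0.423, 0.382 and 0.156 CPM, a log2 FC of -5.08 ± 0.45 (SE, FDR 1.26e-17 in edgeR). ABCA1, the transporter that exports cholesterol to lipoproteins (ENSG00000165029.17, chromosome 9, 104781002 to 104928237, minus strand), fell from 29.7, 28.2 and 27.7 CPM to 1.78, 2.01 and 1.95 CPM, a log2 FC of -3.90 ± 0.16 (SE, FDR 1.4e-23 in edgeR). The libraries did not overlap for either gene. SI, which encodes the intestinal enzyme sucrase-isomaltase (ENSG00000090402.8, chromosome 3, 164978898 to 165078495, minus strand), fell from 77.3, 72.4 and 70.6 CPM to 5.25, 9.84 and 5.62 CPM, a log2 FC of -3.44 ± 0.12 (SE, FDR 1.15e-24 in edgeR). LRRN1, a leucine-rich repeat membrane protein (ENSG00000175928.6, chromosome 3, 3799437 to 3847703, plus strand), fell from 205, 196 and 200.4 CPM to 18.5, 24.7 and 19.3 CPM, a log2 FC of -3.28 ± 0.079 (SE, FDR 5.8e-28 in edgeR). The other 6 of the 10 lowest were the receptor phosphatase PTPRB at -4.01, the secreted protein SCUBE2 at -4.00, EPB41L4A at -3.84, the membrane scaffold MPP1 at -3.70, the kainate receptor subunit GRIK1 at -3.44 and the orphan nuclear receptor NR4A2 at -3.31, with edgeR FDRs from 4.96e-17 to 8.99e-13. All 6 were under 2 CPM in every library with R1881. Some of the deepest falls rest on few counts there. GAB3 had 5, 4 and 2 counts with R1881 added, PTPRB 1, 4 and 9, SCUBE2 0, 7 and 7, EPB41L4A 4, 5 and 4, and MPP1 4, 3 and 8.

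The largest differences in read share fell on a different set of genes. CPM is not corrected for transcript length, so these are differences in reads per gene and not a ranking of molecules. ABHD2, a lipid hydrolase, rose from 222, 226 and 215 CPM to 1332, 1217 and 1275 CPM, a log2 FC of 2.53 ± 0.036 (SE, FDR 7.37e-32 in edgeR). SORD, sorbitol dehydrogenase, rose from 349, 346 and 363 CPM to 1237, 1162 and 1156 CPM, a log2 FC of 1.75 ± 0.033 (SE, FDR 7.3e-29 in edgeR). With the creatine kinase CKB, which rose by 0.78 (edgeR FDR 7.67e-18), these were 3 of the 5 highest. GRB10, an adaptor that binds insulin and IGF receptors (ENSG00000106070.20, chromosome 7, 50590063 to 50793462, minus strand), fell from 1499.7, 1533 and 1526 CPM to 427, 483 and 481 CPM, a log2 FC of -1.71 ± 0.035 (SE, FDR 6.22e-28 in edgeR). SELENBP1, a selenium-binding protein, fell from 1722, 1817 and 1769.8 CPM to 614, 618 and 568 CPM, a log2 FC of -1.56 ± 0.032 (SE, FDR 4.53e-28 in edgeR). The other 3 of the 5 lowest were the microtubule-associated protein MAP1B, the copine CPNE3 and the IGF-binding protein IGFBP3, which fell with log2 FCs of -0.68, -0.94 and -0.98 (edgeR FDR 4.4e-15, 2.4e-21 and 1.96e-18).

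Many genes of sterol and fatty acid synthesis rose. Over all genes tested 9.97% rose and 8.9% fell. In the list of sterol synthesis and uptake 12 of 24 tested genes rose and 1 fell, with a median log2 FC of 0.59. EBP, a sterol isomerase, rose from 21.7, 20.9 and 20.4 CPM to 48.7, 47.4 and 47 CPM, a log2 FC of 1.18 ± 0.063 (SE, FDR 2.6e-17 in edgeR). The sterol reductase TM7SF2 fell from 267, 287 and 271 CPM to 136, 149 and 147 CPM, a log2 FC of -0.93 ± 0.038 (SE, FDR 3.34e-20 in edgeR). Another 9 genes of the list passed the FDR limit above 0 with an FC under 1.5, beside 16.3% of all genes tested. In the list of fatty acid synthesis and oxidation 9 of 26 genes rose and 0 fell, with a median of 0.45. ACSL3, which activates long-chain fatty acids, rose from 112, 106 and 105 CPM to 516, 487 and 488 CPM, a log2 FC of 2.21 ± 0.037 (SE, FDR 1.62e-30 in edgeR). The elongases ELOVL7, ELOVL2 and ELOVL5 rose by 2.33, 1.96 and 1.57 (edgeR FDR 3.53e-25, 9.03e-08 and 6.22e-28). FASN, the fatty acid synthase, was at 0.45 (edgeR FDR 3.11e-11), under the FC limit.

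Several steroid-conjugating enzymes fell. Of 17 tested genes of steroid synthesis and conjugation 5 fell (29.4%) and 2 rose (11.8%), with a median of -0.38. Over all genes tested 8.9% fell and 9.97% rose. UGT2B15 and UGT2B17, which attach glucuronic acid to androgens, fell from 149.6, 151 and 155 to 29.5, 43.3 and 33.4 CPM and from 171, 169 and 174 to 53.5, 61.2 and 60.6 CPM. Their log2 FCs were -2.11 ± 0.067 (SE, FDR 9.34e-24 in edgeR) for UGT2B15 and -1.55 ± 0.048 (SE, FDR 1.18e-23 in edgeR) for UGT2B17. UGT2B10 and UGT2B11 fell with log2 FCs of -2.09 and -1.47, and the sulfotransferase SULT2B1 with -0.98 (edgeR FDR 7.22e-11, 4.5e-17 and 3.15e-05). The UGT2B genes are similar copies, and how reads were divided among them is uncertain. The 2 that rose were HSD17B11, a 17-beta-hydroxysteroid dehydrogenase, by 0.90 ± 0.16 (SE, FDR 7.44e-06 in edgeR), which was not called against an FC of 1.5 itself, and CYP11A1, the side-chain cleavage enzyme, which was at 0, 0.249 and 0.0762 CPM without R1881 and 5.17, 3.63 and 2.26 CPM with it. UGT2B11, SULT2B1, CYP11A1 and ELOVL2 were named after their values were seen.

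Genes of protein export, glycosylation and polyamine synthesis rose in part. In the list of endoplasmic reticulum folding 6 of 30 genes rose (20%) and 0 fell. Over all genes tested 9.97% rose and 8.9% fell. In that list 17 more passed the FDR limit above 0 with an FC under 1.5, beside 16.3% of all genes tested. SEC11C, a subunit of the signal peptidase, rose from 80.7, 85.1 and 86 CPM to 361, 341 and 355 CPM, a log2 FC of 2.07 ± 0.038 (SE, FDR 1.11e-29 in edgeR), and the stress sensor kinase ERN1 rose by 0.82 (edgeR FDR 4.71e-12). HSPA5, the main chaperone of the compartment, was at 0.049 (edgeR FDR 0.206). Among 23 glycosylation genes 6 rose (26.1%) and 3 fell (13%), beside the same shares of all genes. The sialyltransferase ST6GALNAC1 rose from 0.295, 0.166 and 0.305 CPM to 11.3, 12 and 11.7 CPM, a log2 FC of 5.45 ± 0.48 (SE, FDR 2.67e-18 in edgeR), and the mannosidase MAN1A1 fell from 48, 52.8 and 46.6 CPM to 7.54, 9.94 and 9.84 CPM, a log2 FC of -2.43 ± 0.094 (SE, FDR 3e-22 in edgeR). Among the GALNT enzymes of O-linked glycosylation, GALNT2 and GALNT7 rose by 1.26 and 0.98 and GALNT3 fell with a log2 FC of -0.84 (edgeR FDR 9.99e-25, 2.89e-15 and 1.05e-13). Of 11 polyamine genes 4 rose (36.4%) and 0 fell. ODC1, the entry enzyme of the pathway, rose from 362, 386 and 374 CPM to 1032, 902 and 924 CPM, a log2 FC of 1.35 ± 0.043 (SE, FDR 5.21e-23 in edgeR), and spermine synthase (SMS), adenosylmethionine decarboxylase (AMD1) and the polyamine acetyltransferase SAT1 rose by 1.60, 0.89 and 0.98 (edgeR FDR 1.17e-25, 3.77e-22 and 6.59e-18).

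In the list of amino acid synthesis and transport 6 of 26 tested genes rose (23.1%) and 2 fell (7.69%). Of all genes tested 9.97% rose and 8.9% fell, so the share that fell was near that of all genes. Another 9 passed the FDR limit above 0 and 2 below 0 with an FC under 1.5, beside 16.3 and 12.3%. SLC43A1, a transporter of large neutral amino acids, rose from 23.8, 26.9 and 21.3 CPM to 62, 63.5 and 58.9 CPM, a log2 FC of 1.36 ± 0.07 (SE, FDR 1.07e-17 in edgeR). SLC7A5, which carries the same class of amino acids, fell from 9.89, 11.8 and 9.3 CPM to 2.29, 2.77 and 2.81 CPM, a log2 FC of -1.97 ± 0.17 (SE, FDR 7.15e-13 in edgeR). The stress factor DDIT3 fell with a log2 FC of -1.08 ± 0.11 (SE, FDR 2.13e-10 in edgeR), and the serine hydroxymethyltransferase SHMT1 rose by 1.04 ± 0.041 (SE, FDR 1.11e-20 in edgeR).

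Growth factor receptors of the IGF and EGF families moved in both directions. Of 24 tested genes in the list of receptors, PI3K and MAPK feedback 4 rose (16.7%) and 5 fell (20.8%). Over all genes tested these shares were 9.97 and 8.9%. IGF1R, the IGF-1 receptor (ENSG00000140443.15, chromosome 15, 98648539 to 98964530, plus strand), rose from 76.9, 71.3 and 72.6 CPM to 483, 434 and 446 CPM, a log2 FC of 2.62 ± 0.048 (SE, FDR 1.11e-29 in edgeR). Its adaptor IRS2 rose from 4.5, 4.31 and 3.51 CPM to 24, 17.8 and 23.1 CPM, a log2 FC of 2.40 ± 0.14 (SE, FDR 1.68e-17 in edgeR). EGFR rose from 45.3, 47 and 47.3 CPM to 167, 150.3 and 169.7 CPM, a log2 FC of 1.81 ± 0.059 (SE, FDR 5.04e-23 in edgeR). ERBB2, a receptor of the same family as EGFR, fell from 269, 285 and 268 CPM to 138, 152 and 143 CPM, a log2 FC of -0.93 ± 0.04 (SE, FDR 2e-19 in edgeR). The PI3K inhibitor PIK3IP1 fell with a log2 FC of -1.13 ± 0.06 (SE, FDR 2.3e-17 in edgeR). In the list of Wnt, Notch and BMP signaling 4 of 22 tested genes rose (18.2%) and 8 fell (36.4%), beside the same shares of all genes. The Notch effector HEY1 and the ligand WNT7B rose by 3.15 and 2.02 (edgeR FDR 4.78e-18 and 3.54e-23). The Wnt effector LEF1 fell from 19.1, 19.7 and 19.1 CPM to 6.95, 5.64 and 4.68 CPM, a log2 FC of -1.75 ± 0.12 (SE, FDR 6.05e-15 in edgeR). BMP6 and the Wnt receptor inhibitor RNF43 fell with log2 FCs of -1.84 and -0.90 (edgeR FDR 2.87e-16 and 6.19e-07).

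Cell cycle genes gave the most uniform response. In the list of DNA replication 36 of 37 genes rose and 0 fell, and in the list of mitosis 28 of 28 rose. Of all genes tested 9.97% rose and 8.9% fell. The median log2 FCs of the 2 lists were 1.72 and 2.13. The replication gene that was not called was cyclin E1 (CCNE1), at 0.40 (edgeR FDR 0.000428). MCM10, which loads replication factors at origins, rose from 4.43, 5.89 and 5.41 CPM to 44.5, 50.5 and 45.5 CPM, a log2 FC of 3.16 ± 0.11 (SE, FDR 4.16e-24 in edgeR). RRM2, the small subunit of ribonucleotide reductase, rose from 13, 15.1 and 11.6 CPM to 107, 125 and 113 CPM, a log2 FC of 3.12 ± 0.094 (SE, FDR 1.71e-25 in edgeR). E2F2, a transcription factor of S phase entry, rose by 3.39 ± 0.25 (SE, FDR 2.73e-16 in edgeR). NDC80, a kinetochore protein, rose from 4.65, 3.4 and 3.2 CPM to 24.7, 26.6 and 25.6 CPM, a log2 FC of 2.76 ± 0.15 (SE, FDR 1.08e-18 in edgeR). The kinases TTK and AURKB rose by 2.63 and 2.56 (edgeR FDR 1.12e-15 and 6.81e-14). The lowest mitotic value was 0.96, of cyclin B1 (CCNB1).

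Among the genes that restrain or feed the cycle, 3 rose and 3 fell of 17 tested in the list of the MYC network and CDK inhibitors. That was 17.65% each, beside 9.97 and 8.9% of all genes tested. MYC was 366, 393 and 383 CPM with Senexin B and 391, 391 and 390.4 CPM with R1881 added, a log2 FC of 0.039 ± 0.032 (SE, FDR 0.305 in edgeR) that was not called and that was -0.035 with libraries scaled by their totals. The CDK inhibitor CDKN1A fell from 73.4, 80.9 and 78.2 CPM to 41.1, 42.8 and 41.4 CPM, a log2 FC of -0.89 ± 0.056 (SE, FDR 2.43e-15 in edgeR). Another, CDKN1C, fell with a log2 FC of -0.99, whereas CDKN2C and CDKN2D rose by 1.70 and 0.96 (edgeR FDR 3.32e-07, 1.51e-13 and 5.04e-05). Cyclin D3 (CCND3) rose by 0.71 and the MYC antagonist MXI1 fell with a log2 FC of -0.60 (edgeR FDR 8.45e-12 and 2.5e-12). MXI1 crossed the FC limit to -0.56 without replicate 1 of the R1881 plus Senexin B group, and with CDKN2D and CCND3 it was not called against an FC of 1.5 itself. None of 30 ribosome biogenesis genes rose past the FC limit, beside 9.97% of all genes tested, and 18 passed the FDR limit above 0 with a smaller FC, beside 16.3%. The 1 that fell was DKC1, a pseudouridine synthase subunit, from 305, 304 and 314 CPM to 202, 204 and 190.2 CPM, a log2 FC of -0.63 ± 0.035 (SE, FDR 1.17e-16 in edgeR) that was not called against an FC of 1.5 itself.

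Interferon and neuroendocrine genes had few calls, and the counts are too small to be a result about either list. Of 23 tested interferon response genes 1 rose (4.35%) and 0 fell, beside 9.97 and 8.9% of all genes tested. It was OAS3, which rose by 1.44 ± 0.23 (SE, FDR 1.6e-06 in edgeR). In the list 2 were called in the block fit, in the fit of all libraries and without replicates 1 or 2 of R1881 plus Senexin B. Another 5 passed the FDR limit below 0 with an FC under 1.5, beside 12.3% of all genes tested. Only 5 of 19 neuroendocrine and neuronal markers were expressed highly enough to be tested. Of these the neuronal enolase ENO2 fell with a log2 FC of -0.71 ± 0.077 (SE, FDR 1.26e-09 in edgeR) and was not called against an FC of 1.5 itself, and the ubiquitin hydrolase UCHL1 rose by 0.84 ± 0.27 (SE, FDR 0.00664 in edgeR), a call that was lost with DESeq2, with library totals, against an FC of 1.5 itself, and without Senexin B replicates 2 or 3 or any replicate of R1881 plus Senexin B. Of the fibroblast markers, COL3A1 fell with a log2 FC of -2.18 ± 0.17 (SE, FDR 3.55e-14 in edgeR), and the endothelial marker VWF, which did not exceed 2.48 CPM on that scale, rose by 1.50 ± 0.37 (SE, FDR 0.000433 in edgeR).

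**Figure D3:**
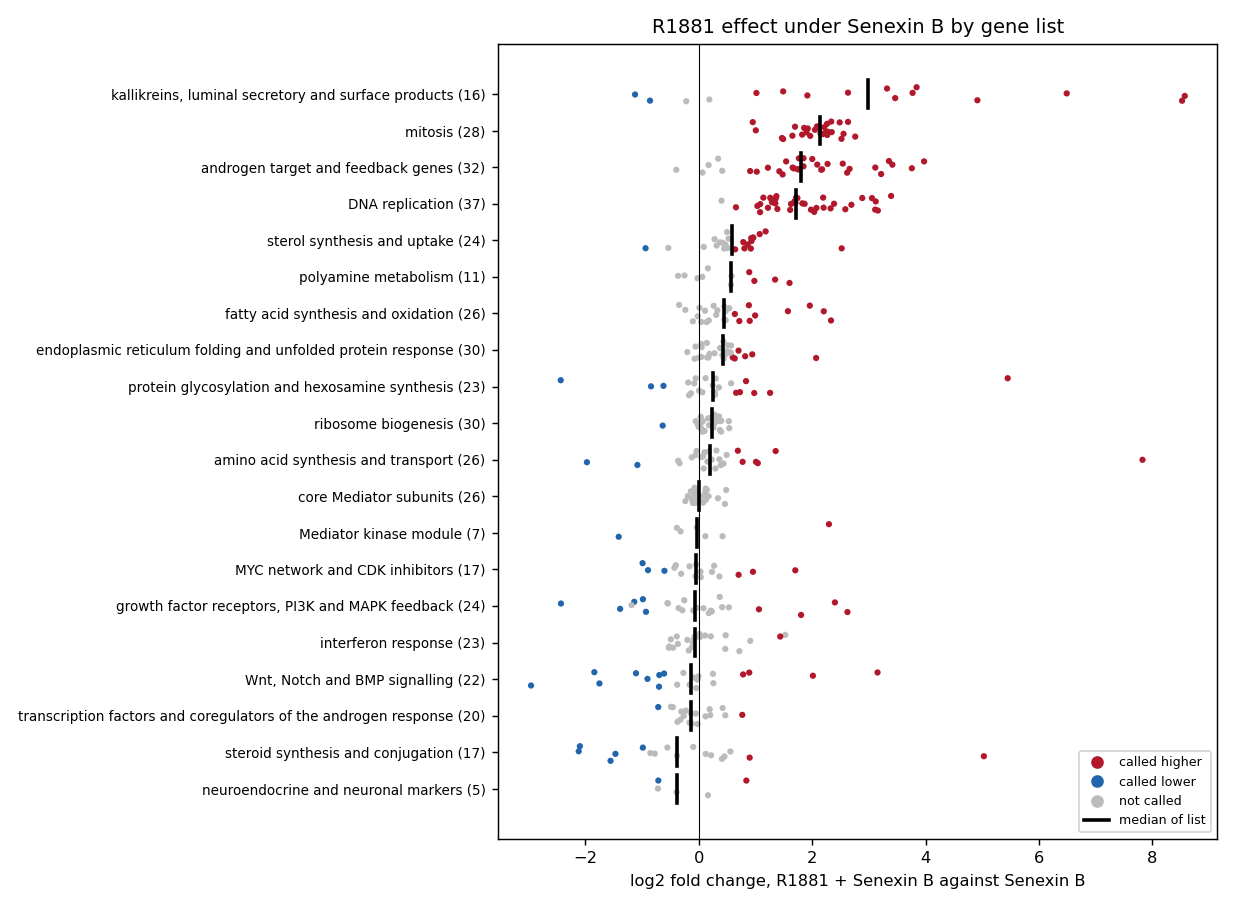
Log2 fold change of R1881 plus Senexin B against Senexin B alone (horizontal axis) for the tested genes of 20 lists (vertical axis, number of tested genes in parentheses), with red for called higher, blue for called lower, grey for not called and a black bar for the median of each list. Kallikreins, mitosis, androgen target genes and DNA replication lie furthest right, with medians from 1.72 to 2.98. Vertical scatter within a list has no meaning.

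The androgen response with Senexin B was then set against the response without it, measured in 6 other libraries of the same experiment. Without inhibitor 3030 of the 15948 genes were called (19%), 1565 higher (9.81%) and 1465 lower (9.19%). In Senexin B treated cells but not without inhibitor, 281 genes were called higher and 420 lower, without inhibitor but not under Senexin B 256 were called higher and 466 lower, and no gene was called in opposite directions. A call in one condition only is not a difference between them. Of the 701 genes called under Senexin B only, 361 passed the FDR limit in the same direction without inhibitor and 677 had the same sign, and 25 had a called interaction, which is the direct test of the difference between the androgen effects. That interaction was called for 92 genes (0.577%), above 0 for 39 (0.245%) and below 0 for 53 (0.332%). A test against an FC of 1.5 itself, called at an FDR under 0.05, left 3 above 0 (CNTNAP3, TENM1 and CA5BP1) and 4 below 0 (TMEFF2, THRB, ADRA2A and GCLC). For most genes the interaction was thus not shown to exceed the FC limit.

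**Figure D4:**
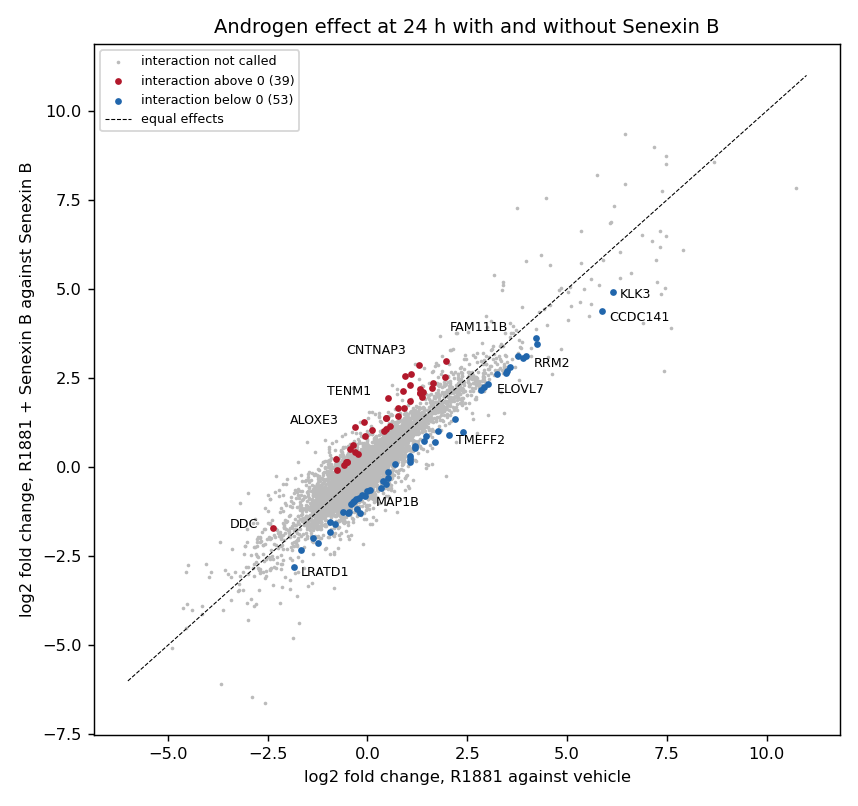
Log2 fold change of R1881 in Senexin B treated cells (vertical axis) by that in cells without inhibitor (horizontal axis) at 24 h, one point per gene tested, with the dashed line marking equal effects. The 39 genes with a called interaction above 0 are red, the 53 below 0 blue and all others grey, and the coloured genes lie on both sides of the line from falls to rises.

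The medians of the gene lists with and without inhibitor are given side by side. The median log2 FC of the kallikrein list was 2.98 under Senexin B and 2.92 without it, that of the androgen target genes 1.81 and 1.83, and that of the steroid list -0.38 and -0.51. DNA replication had medians of 1.72 and 1.84 and mitosis of 2.13 and 2.30. The interaction was below 0 in 28 of 28 mitosis genes, with a median of -0.28, and in 27 of 37 replication genes, beside 7929 of all 15948 genes and a median of 0.0011. It was also below 0 in 24 of 26 amino acid genes and 24 of 30 ribosome biogenesis genes. The steroid list leaned the other way, below 0 in 3 of 17 genes with a median of 0.22. Without R1881, Senexin B by itself raised 14 of 28 mitosis genes, 21 of 37 replication genes, 20 of 26 amino acid genes and 26 of 30 ribosome biogenesis genes past the FDR limit whatever their fold, beside 2147 of all 15948 genes (13.5%). With R1881 present it raised 4, 18, 16 and 17 in the same lists, beside 2029 of all genes (12.7%). In the kallikrein list Senexin B lowered 9 of 16 genes past the FDR limit both without and with R1881, and raised 0 and 1. In the steroid list it lowered 8 of 17 both without and with R1881, and raised 0 and 2. Over all 15948 genes it lowered 1862 and 1593. UGT2B15, at a mean of 488 CPM in vehicle and 152 with Senexin B, had an interaction of 0.5847 ± 0.085 (SE, FDR 2.78e-05 in edgeR). That was just under the FC limit and not called. KLK2 stood at a mean of 211 CPM with R1881 alone and 51.8 with both agents, and CHRNA2 at 79.7 and 31.9. Their log2 FCs of Senexin B with R1881 present were -2.03 and -1.33 (edgeR FDR 9.36e-24 and 2.02e-17). Neither gene had a called interaction, at -0.98 ± 0.39 for KLK2 (SE, FDR 0.214 in edgeR) and 1.03 for CHRNA2 (edgeR FDR 0.503). With Senexin B alone KLK2 held 9, 5 and 8 counts and CHRNA2 2, 1 and 0. On so few counts the test cannot decide whether their androgen effects differed. The genes of a list are not independent of each other, and the interaction shares its libraries with both of these inhibitor contrasts.

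For the genes with an interaction below 0, the inhibitor more often differed from its control in the absence of R1881. The inhibitor difference exceeded 1.5-fold only without R1881 in 31 of the 53 genes, only with R1881 in 6, in both in 5 and in neither in 11. CDC6, a replication licensing factor, is of the first kind, with 5.42 ± 0.325 CPM in vehicle, 11.4 ± 2.42 in Senexin B, 81.2 ± 3.02 in R1881 and 94.4 ± 6.81 in both (mean ± SD, n = 3). Its androgen effect was 3.06 with and 3.90 without inhibitor, an interaction of -0.84 ± 0.14 (SE, FDR 0.000159 in edgeR). MAP1B stood at 983 ± 5.03 CPM in vehicle, 2109 ± 90.2 in Senexin B, 979 ± 92.9 in R1881 and 1317 ± 56.3 in both (mean ± SD, n = 3), an interaction of -0.67 ± 0.061 (SE, FDR 3.49e-09 in edgeR). MAP1B fell with R1881 under Senexin B, and its log2 FC for R1881 without inhibitor was -0.0071. DKC1 had the same form, with 169.8 ± 5.52, 308 ± 5.21, 177 ± 3.99 and 199 ± 7.28 CPM in that order and an interaction of -0.69 ± 0.05 (SE, FDR 3.1e-11 in edgeR). TMEFF2, a transmembrane protein of the prostate (ENSG00000144339.12, chromosome 2, 191949043 to 192195709, minus strand), reached 99.3 ± 5.48 CPM with R1881 and 105 ± 6.41 with both, from 23.7 ± 1.57 in vehicle and 56.2 ± 2.79 in Senexin B, an interaction of -1.13 ± 0.08 (SE, FDR 2.05e-11 in edgeR).

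KLK3 and CCDC141 are among the 5 genes where the inhibitor difference exceeded 1.5-fold in both. The log2 FC of Senexin B against its control was -0.69 without R1881 and -1.92 with it for KLK3 (edgeR FDR 0.0318 and 4.02e-23), and 0.72 and -0.79 for CCDC141 (edgeR FDR 0.0592 and 2.43e-10), so the FDR limit was passed with R1881 present and not without it. KLK3 stood at 1.13, 1.48 and 1.71 CPM in the vehicle libraries and 107, 115 and 109 CPM in the R1881 libraries, against the 29.6, 29.2 and 28.4 CPM with both agents given above, and its interaction was -1.23 ± 0.26 (SE, FDR 0.00624 in edgeR). CCDC141, a coiled-coil protein (ENSG00000163492.16, chromosome 2, 178829757 to 179050086, minus strand), stood at 0.735 ± 0.0987 CPM in vehicle, 1.16 ± 0.0729 in Senexin B, 41.9 ± 4.34 in R1881 and 24.3 ± 0.66 in both (mean ± SD, n = 3), an interaction of -1.51 ± 0.31 (SE, FDR 0.00249 in edgeR). The level without R1881 was near 1 CPM for both genes, and the calls are sensitive to it. The KLK3 interaction was not called (edgeR FDR from 0.0103 to 0.0392) when any of the 3 Senexin B libraries, vehicle replicates 1 or 2, or replicate 3 of the R1881 plus Senexin B group was left out, and that of CCDC141 (edgeR FDR from 0.0144 to 0.0376) without vehicle replicate 3 or Senexin B replicates 1 or 3. The elongase ELOVL7, with 119 ± 1.23 CPM in R1881 and 80 ± 4.44 in both, the Notch ligand JAG1, with 67.1 ± 2.03 and 34.2 ± 1.42, and the transcription factor SOX4, with 296 ± 11.6 and 179.7 ± 4.78 (mean ± SD, n = 3), had interactions of -0.69, -0.76 and -0.64 (edgeR FDR 5.01e-06, 9.25e-09 and 4.39e-11). The inhibitor difference exceeded 1.5-fold only with R1881 for JAG1 and SOX4, and in neither for ELOVL7, at 0.11 without and -0.57 with R1881 on the log2 scale. The remaining genes below 0 named by rule were DLG2, a synaptic scaffold, at -0.98, LRATD1 at -0.94 and C18orf54 at -0.92 (edgeR FDR 0.00196, 1.04e-05 and 0.00398). The DLG2 interaction was not called without vehicle replicate 3 or Senexin B replicate 2 (edgeR FDR 0.0221 and 0.0121), nor that of C18orf54 without any 1 of 6 libraries (vehicle replicate 2, Senexin B replicates 1 and 3, R1881 replicate 3 and replicates 1 and 2 of R1881 plus Senexin B, edgeR FDR from 0.01 to 0.0317). SOX4 and CAPN2, which follows, were named after their values were seen.

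Genes with an interaction above 0 were mostly raised further by R1881 when the inhibitor was present. Of the 39 genes, 18 were called higher in both conditions and 11 under Senexin B only, and the inhibitor difference exceeded 1.5-fold only with R1881 in 16, only without it in 8, in both in 5 and in neither in 10. SOX9, a transcription factor of prostate development (ENSG00000125398.8, chromosome 17, 72121020 to 72126420, plus strand), stood at 2.73, 2.41 and 2.13 CPM with Senexin B and 17.8, 12.8 and 14.2 CPM with both agents, against 3.47, 2.61 and 2.93 CPM in vehicle and 7.35, 6.62 and 5.01 CPM with R1881 alone. Its androgen effect was 2.62 with and 1.09 without inhibitor, an interaction of 1.53 ± 0.25 (SE, FDR 9.34e-05 in edgeR). CNTNAP3, a neurexin-family adhesion protein (ENSG00000106714.18, chromosome 9, 39072767 to 39288315, minus strand), stood at 4.36 ± 0.317, 2.75 ± 0.767, 10.3 ± 0.741 and 20.4 ± 0.567 CPM in vehicle, Senexin B, R1881 and both (mean ± SD, n = 3), an interaction of 1.60 ± 0.20 (SE, FDR 7.65e-07 in edgeR). The protease subunit CAPN2 stood at 45.8 ± 1.93, 46.3 ± 1.22, 62.3 ± 1.34 and 121 ± 15.3 CPM in the same order, an interaction of 0.94 ± 0.09 (SE, FDR 8.78e-09 in edgeR). The libraries with both agents lay above all others for these 3 genes. SLC26A2, a sulfate transporter and the only androgen target gene of the list with a called interaction, had 0.77 (edgeR FDR 5.54e-09), and MED12L had 1.22 (edgeR FDR 0.000113). The others named by rule were PRRT2, a synaptic protein, at 1.62, the lipoxygenase ALOXE3 at 1.43, the teneurin TENM1 at 1.42 and CA5BP1, a pseudogene of the carbonic anhydrase CA5B whose reads may be shared with it, at 1.26 (edgeR FDR from 1.7e-07 to 0.000468).

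**Figure D5:**
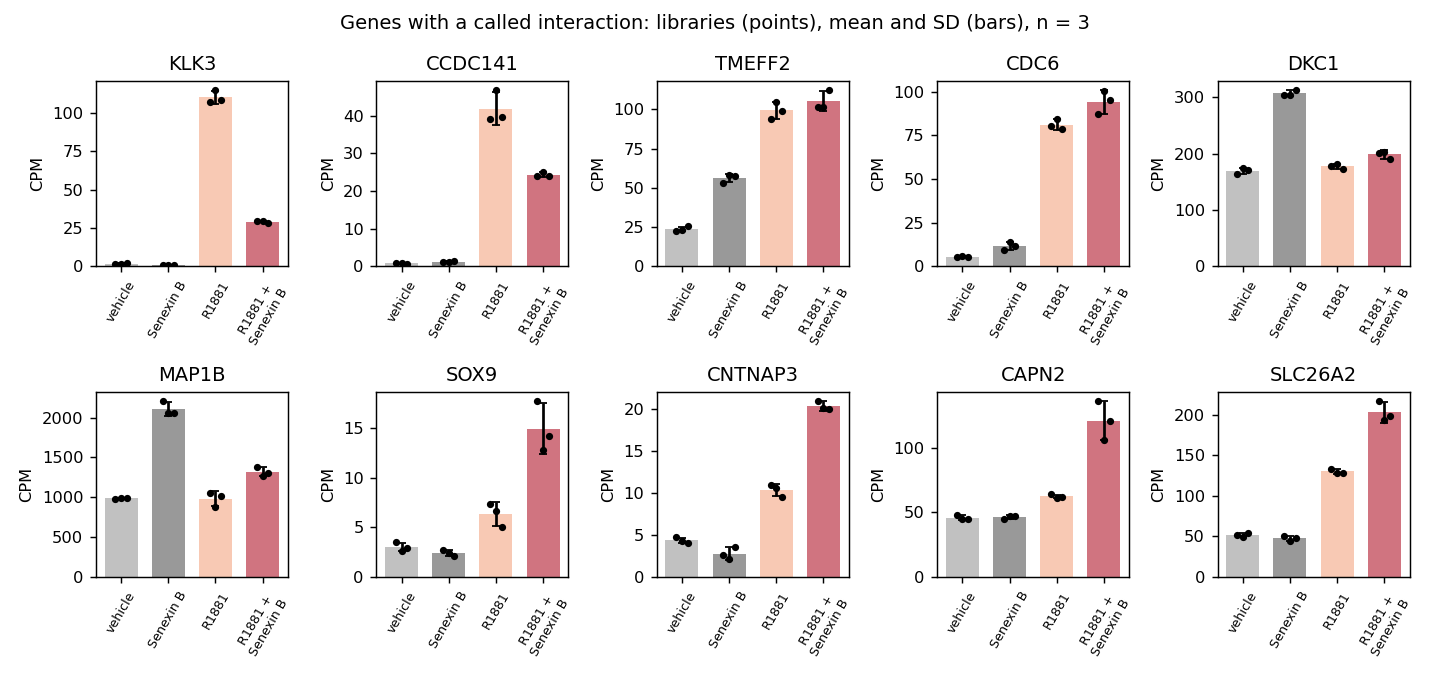
Levels in CPM (vertical axes, each starting at 0) of 10 genes with a called interaction in vehicle, Senexin B, R1881 and R1881 plus Senexin B at 24 h, with points for the 3 libraries, bars for the mean and error bars for the SD. For KLK3 and CCDC141 the bar with both agents lies below that with R1881 alone, for TMEFF2, CDC6, DKC1 and MAP1B the ratio of the inhibitor bar to its control is largest in the absence of R1881, and for SOX9, CNTNAP3, CAPN2 and SLC26A2 the bar with both agents is the highest.

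The 72 h experiment gives the same comparison with another inhibitor, a dose of R1881 of 1 nM and a longer time, which cannot be told apart. There R1881 changed 3543 of 16074 genes in cells treated with SNX631 (22%), 1619 higher (10.1%) and 1924 lower (12%). Of the genes called higher under Senexin B at 24 h, 1570 were tested at 72 h and 1258 of these were called higher there, and of those called lower 1379 were tested and 1082 were called lower, with 1 gene called in opposite directions. The median log2 FCs of the kallikrein list were 2.98 under Senexin B at 24 h and 3.01 under SNX631 at 72 h, and those of the androgen target genes 1.81 and 2.02. DNA replication had medians of 1.72 and 0.93 and mitosis of 2.13 and 1.07 in the same order. In both, 28 of 28 mitosis genes were called higher, beside 9.97 and 10.1% of all genes tested. Among single genes, the values under Senexin B and SNX631 were 4.91 and 5.04 for KLK3, 3.76 and 3.73 for FKBP5, -1.41 and -1.17 for CDK8, 2.62 and 2.79 for IGF1R, and 2.62 and 2.87 for SOX9. They lay further apart for other genes, at 2.30 and 0.97 for MED12L, 3.12 and 1.40 for RRM2, and -0.63 and -0.14 for DKC1. The doses and times differ, so no test of these differences was made.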

How the data were processed

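Total RNA was made into libraries with a directional kit. The authors deposited expected counts per gene, not scaled to depth, in which shared reads are split (16.9% of nonzero values were not whole). The labels name FastQC, cutadapt 2.8, STAR 2.7.2b, featureCounts, Subread 2.0.3 and the builds GRCh38.p13 and GRCm39 without their roles, and the use of strand in counting is not given in the sources used here. The table held 61815 genes and 2 added entries with 0 counts, which were left out. Counts were rounded to whole numbers. A read shared between paralogs or overlapping genes can move a count of either.

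The 12 libraries of 24 h were fitted together by group with edgeR 4.0.16 in R 4.3.3 (quasi-likelihood test after TMM scaling and the filterByExpr filter at 10 counts and a total of 15), with Benjamini-Hochberg adjustment across the 15948 genes that passed the filter. SEs are Wald SEs. The common biological coefficient of variation was 2.72%. The 72 h libraries were fitted alone. Libraries of 10908361 to 13346723 counts were compared, in which 3 counts in all served as the floor for a group. Intervals of ratios at 3 counts or fewer are exact 95% intervals for counting error. Alternatives were other scalings, DESeq2 1.42.0, other filters and limits, a test against the fold limit (glmTreat), a replicate block, other sets of libraries and leaving out each library. Calls of the glmTreat test used an FDR under 0.05. Samples with the same replicate number did not deviate together (correlations of -0.014, 0.021 and 0.029 over 10787 genes), so the numbers were not taken as pairs.

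The comparison and the gene lists were chosen with earlier results of these data known. The text names the 10 highest and 10 lowest log2 FCs among called genes with at least 5 CPM in the higher group and no overlap, a fixed set (among them KLK3, KLK2, FKBP5, MYC and the kinase module), up to 3 called genes per list and direction with at least 5 CPM, the 5 highest and 5 lowest differences in CPM, and the 6 highest and 6 lowest interactions with at least 5 CPM. Other list members are named to fill out a list. Some genes that these rules name are not reported here, and they stay in the counts. Positions are those of GENCODE 29 on GRCh38, where 181 of 182 identifiers matched, and promoters those of RefSeq on GRCh38.p14. The pipeline was tested on simulated data. Python 3.11.15 and matplotlib 3.10.9 drew the figures.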

Additional observations from a re-analysis of the deposited data

Results flagged for a closer look

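These 24 genes are listed because the androgen effect under Senexin B differed from that without inhibitor by a direct test, the edgeR interaction at an FDR under 0.01 and a fold over 1.5, and because they are named by rule or belong to a list. Values are the androgen effect with Senexin B minus that without, on the log2 scale.

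The effect was smaller or more negative with Senexin B for CCDC141 at -1.51, KLK3 at -1.23, TMEFF2 at -1.13, DLG2 at -0.98, LRATD1 at -0.94 and C18orf54 at -0.92. Among cell cycle genes this held for RRM2 at -0.85, CDC6 at -0.84, UHRF1, which maintains DNA methylation after replication, at -0.81 and the topoisomerase TOP2A at -0.66. Among signaling genes it held for SPRY1, an inhibitor of receptor tyrosine kinase signaling, at -0.84, JAG1 at -0.76 and IGFBP3 at -0.62. The others were DKC1 at -0.69, ELOVL7 at -0.69 and the glycosyltransferase GCNT1 at -0.65. SPRY1 was not called with DESeq2 (adjusted p = 0.0245) or when any 1 of 7 libraries was left out (edgeR FDR from 0.0115 to 0.0321), namely vehicle replicates 2 and 3, Senexin B replicates 2 and 3, R1881 replicate 2 and replicates 1 and 2 of R1881 plus Senexin B. IGFBP3 fell under the fold limit, at -0.55, without replicate 3 of R1881 plus Senexin B.

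The effect was larger or more positive with Senexin B for PRRT2 at 1.62, CNTNAP3 at 1.60, SOX9 at 1.53, ALOXE3 at 1.43, TENM1 at 1.42, CA5BP1 at 1.26, MED12L at 1.22 and SLC26A2 at 0.77.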

How the results depend on the processing

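The counts of genes called for R1881 under Senexin B, 1590 higher and 1419 lower, stayed within 1.5 times under other scalings, DESeq2, other filters, a replicate block and other sets of libraries. With an FDR under 0.05 and no fold limit they were 4820 higher and 4337 lower. A test against a fold of 1.5, also at an FDR under 0.05, gave 811 lower and 1215 higher. The interaction, 39 above 0 and 53 below 0, gave 373 and 346 without the fold limit and 3 and 4 in the test against it. Leaving out 1 library at a time gave 1551 to 1610 higher, 1284 to 1468 lower and interactions of 32 to 46 above 0 and 41 to 57 below 0. With the replicate block 1600 genes were higher, 1429 lower, and 44 and 57 had an interaction. Of 3009 calls, 2996 were called the same way in the block fit. The same-numbered libraries share only a number, and the block changed no named call of the androgen effect. MYC changed sign to -0.035 with library totals alone. Of 108 named genes, 9 lost the call of the androgen effect in the test against the fold (NCOA3, HSD17B11, ST3GAL1, DKC1, CDKN2D, CCND3, MXI1, ENO2 and DLG2), MXI1 also without replicate 1 of R1881 plus Senexin B, and C18orf54 was called without replicate 3 of that group, at -0.62. Of the 92 interactions, 85 lost the call under at least 1 alternative and none changed sign. Depth limits the genes near 1 CPM, where a library holds about 10 counts.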
